A study of Homo sapiens with 18 samples.

Results

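The 10 genes described here (METTL7A, CDK18, GASK1B, SLITRK4, MYO7A, SLC35F4, PLXDC1, LRRC4B, NXPH3 and ANKRD34A) were chosen by their measured levels. They were picked because their counts were high in the groups labelled control 24 h or thrombin 4 h and low in those labelled thrombin 24 h or control 4 h, the mirror image of the contractile gene TAGLN. They are 10 of 28278 gene symbols in the count table, and 10 of the 15353 genes that passed the filter on low counts. All comparisons among those 4 groups, at 4 h, at 24 h and between the controls, are therefore given as descriptions. No test result is read from them for the 10 genes. The comparison at 48 h, the differences between libraries of the same group and the promoter sequences were not part of the choice.

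The samples were 18 RNA-sequencing libraries of LX-2, an established, immortalized line of human hepatic stellate cells, so all of them come from 1 line. Cells were held for 1 h in serum-free medium and then incubated for 4 h, 24 h or 48 h with thrombin (1 U/mL) or, as the control, with serum-free medium only. No genotype, allele or other agent distinguishes the groups, and every group had the serum-free step. Each of the 6 groups held 3 libraries, whose titles carry the numbers 12, 13 and 14. The labels do not say what that number stands for or whether libraries came from separate cultures, so p-values reflect only how far these libraries differ from each other, which can be a technical spread.

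Hepatic stellate cells are the pericytes of the liver sinusoid. In the resting state they store retinoids, and on activation they become contractile, matrix-producing myofibroblasts. Thrombin, the protease of blood clotting, signals to them through protease-activated receptors, which act on the actin cytoskeleton. TAGLN (transgelin, also called SM22) is an actin-binding protein of smooth muscle and a classical target of serum response factor, which binds CArG boxes in promoters. The 10 genes share no single pathway. METTL7A (a membrane methyltransferase, named TMT1A in RefSeq), CDK18 (a cyclin-dependent kinase of the PCTAIRE group) and GASK1B (a Golgi-associated kinase-like protein) are enzymes or enzyme-like. SLITRK4 and LRRC4B are leucine-rich adhesion proteins of synapses, NXPH3 is a secreted ligand of neurexins, and PLXDC1 is a transmembrane protein with a plexin-like domain first described in tumour endothelium. MYO7A is an unconventional myosin of hair-cell stereocilia, SLC35F4 belongs to a family of solute carriers, and ANKRD34A is an ankyrin-repeat protein whose role is little described.

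Library totals ran from 14431044 to 23270601 counts, and scaling factors from 0.945 to 1.031. Libraries with the label thrombin 4 h were close to those with the label control 24 h: 3 of 15353 genes were higher and 8 lower at an adjusted p under 0.05 in edgeR's quasi-likelihood test. Whether the labels of these or other libraries were exchanged could not be settled from the sources used here. An exchange with other groups would change what the differences between thrombin and control at 4 h and 24 h mean. An exchange of control with thrombin at the same time would reverse the sign of the difference at that time. Group names below are those of the labels. Of 16 stellate cell markers 13 reached a mean of 1 CPM (counts scaled to library size), with COL1A1 at 2273 CPM and VIM at 3591 CPM, while LUM, DCN and LRAT stayed below 1 CPM. Of 7 hepatocyte markers only SERPINA1 reached 1 CPM, and TTR was at 0 in every library. Markers of other lineages were less clear-cut. That level was reached by 3 of 6 endothelial markers (VWF at 14.5 CPM) and 4 of 6 macrophage markers (CD68 at 74.9 CPM). It was also reached by 2 of 5 cholangiocyte markers (SOX9 at 170 CPM).

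All 10 genes are protein-coding, and their promoters were looked at because the genes were high and low in the same groups. RefSeq windows on build GRCh38.p14, from 250 bases before to 50 bases after a transcription start, were matched for 7 of the 10 genes (METTL7A by its synonym TMT1A), giving 11 windows of 300 bases. MYO7A, PLXDC1, NXPH3 and TAGLN had no entry. The windows ranged from 35.7% to 73.7% GC, with a median of 63.0% against 58.7% over all 35116 windows of that length. METTL7A and CDK18 are shown because they had the lowest Pearson's r with TAGLN over the 18 libraries, SLITRK4 because it alone held the TEAD motif, and GASK1B because it alone held the TATA motif. Sequences read 5′ to 3′ along the gene's strand. Capitals mark the searched motifs: GGGCGG (the GC box), GGAATG (bound by TEAD factors) or TATAAA.

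METTL7A, chr12:50924765-50925064, plus strand: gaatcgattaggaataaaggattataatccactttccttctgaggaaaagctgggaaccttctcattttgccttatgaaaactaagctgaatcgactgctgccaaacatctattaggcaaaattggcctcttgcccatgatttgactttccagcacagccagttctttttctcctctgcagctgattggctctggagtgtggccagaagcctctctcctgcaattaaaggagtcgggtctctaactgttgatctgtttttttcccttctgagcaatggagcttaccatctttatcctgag
CDK18, chr1:205504419-205504718, plus strand: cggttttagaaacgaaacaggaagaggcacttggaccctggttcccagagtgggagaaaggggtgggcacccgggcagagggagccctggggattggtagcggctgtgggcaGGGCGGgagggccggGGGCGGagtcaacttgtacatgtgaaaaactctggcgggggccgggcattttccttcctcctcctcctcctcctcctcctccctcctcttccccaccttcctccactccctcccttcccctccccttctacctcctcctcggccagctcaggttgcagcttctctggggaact
SLITRK4, chrX:143636052-143636351, minus strand: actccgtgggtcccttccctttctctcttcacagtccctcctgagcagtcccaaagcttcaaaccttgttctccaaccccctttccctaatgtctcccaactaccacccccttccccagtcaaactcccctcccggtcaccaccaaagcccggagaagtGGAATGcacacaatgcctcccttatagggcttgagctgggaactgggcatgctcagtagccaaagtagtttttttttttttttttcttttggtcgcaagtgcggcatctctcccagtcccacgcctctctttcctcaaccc
SLITRK4, chrX:143635042-143635341, minus strand: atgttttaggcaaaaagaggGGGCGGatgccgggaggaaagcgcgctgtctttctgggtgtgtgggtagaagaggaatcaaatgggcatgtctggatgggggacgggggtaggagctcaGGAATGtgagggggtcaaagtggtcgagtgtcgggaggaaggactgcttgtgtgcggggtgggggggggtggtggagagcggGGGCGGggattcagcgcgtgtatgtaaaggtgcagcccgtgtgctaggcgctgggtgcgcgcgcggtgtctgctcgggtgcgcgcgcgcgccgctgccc
GASK1B, chr4:158172976-158173275, minus strand: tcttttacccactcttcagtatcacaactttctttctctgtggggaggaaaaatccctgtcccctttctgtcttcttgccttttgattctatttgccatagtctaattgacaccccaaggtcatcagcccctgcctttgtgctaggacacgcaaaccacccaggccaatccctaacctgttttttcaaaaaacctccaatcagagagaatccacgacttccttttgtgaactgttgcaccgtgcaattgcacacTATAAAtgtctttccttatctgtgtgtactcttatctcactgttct

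The 6 motifs were searched on both strands, and no 2 of the matches overlapped. The CArG box had no match in any of the 11 windows, against 1.29% of all windows. The AP-1 motif TGANTCA had no match, against 7.71%, and neither did the forkhead motif GTAAACA, against 3.42%. GGAATG was found in 2 of the 3 SLITRK4 windows, 91 and 131 bases before their starts, against 14.0% of all windows. TATAAA was found in 1 GASK1B window, 4 bases after the start, against 11.5%. GGGCGG was found in 7 windows of 5 genes (CDK18, SLITRK4, SLC35F4, LRRC4B and ANKRD34A), against 45.0%. The METTL7A window held none of the 6. A match describes the letters of a window only.

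TAGLN set the scale for the comparison. Its level was 79.4, 68.7 and 70.4 CPM in control 4 h (libraries 12, 13 and 14 in this order throughout), 36.9, 36.4 and 35.1 in thrombin 4 h, and 27.3, 23.6 and 24.6 in control 24 h. It was 144, 139 and 149 CPM in thrombin 24 h, 94.1, 76.4 and 63.8 in control 48 h, and 77.1, 63.4 and 53.2 in thrombin 48 h. Thrombin 24 h was thus the highest and control 24 h the lowest group, 5.74-fold apart, and the libraries of the 2 groups at 48 h overlapped.

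METTL7A (chr12:50925015-50932508, plus strand) had the lowest Pearson's r with TAGLN over the 18 libraries, given below. It stood at 5.09, 2.65 and 2.78 CPM in control 4 h, 7.88, 7.97 and 9.68 in thrombin 4 h, and 7.42, 7.79 and 6.07 in control 24 h. It stood at 1.41, 2.65 and 1.97 CPM in thrombin 24 h, 2.26, 2.78 and 4.04 in control 48 h, and 3.64, 4.30 and 3.29 in thrombin 48 h. Thrombin 4 h was the highest group and thrombin 24 h the lowest, 4.23-fold apart. The steps from thrombin 4 h to control 24 h and from there to thrombin 48 h were the ones without overlap, and the 4 lowest groups overlapped with their neighbours in order.

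CDK18 (chr1:205504669-205532790, plus strand) stood at 4.09, 3.93 and 2.99 CPM in control 4 h, 8.06, 7.07 and 8.40 in thrombin 4 h, and 12.5, 11.4 and 9.31 in control 24 h. It stood at 2.62, 3.40 and 4.12 CPM in thrombin 24 h, 5.67, 6.30 and 6.84 in control 48 h, and 7.53, 8.08 and 7.53 in thrombin 48 h. Unlike METTL7A, it was highest in control 24 h, above every thrombin 4 h library, and every thrombin 48 h library was above every control 48 h library. GASK1B (chr4:158124474-158173025, minus strand) was the least abundant of the 10 per length of transcript, at 0.229 CPM per kilobase of annotated exon (GENCODE). Its counts ran from 8 to 59 per library, so that counting error alone is 35.4% at the lowest. It was highest in control 24 h (3.51 ± 0.70 CPM, SD, n = 3) and lowest in thrombin 24 h (0.916 ± 0.481). In control 4 h the library 12 stood at 2.72 CPM against 0.662 and 0.835 in the other libraries.

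**Figure D1:**
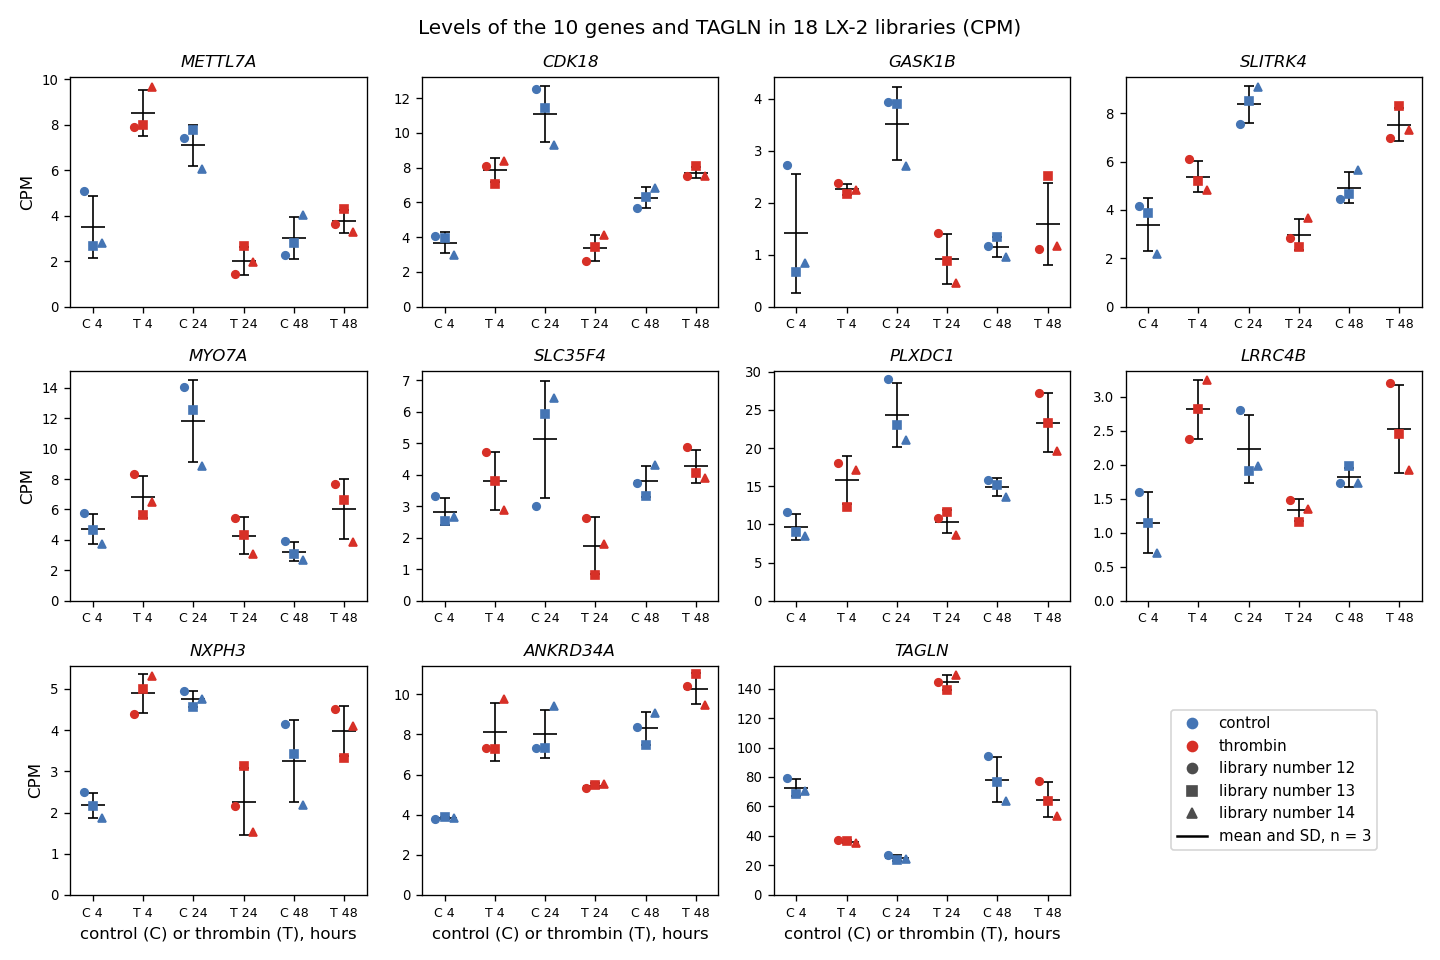
Level in CPM (y axis, from 0) of each of the 10 genes and TAGLN in the 6 groups (x axis, control or thrombin and hours). Each point is 1 library, its shape the library number, with the mean and SD of n = 3 as a black bar. TAGLN peaked in thrombin 24 h at 144 CPM, where METTL7A, CDK18, GASK1B, SLITRK4 and SLC35F4 had their lowest mean.

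Among the adhesion and receptor genes, PLXDC1 (chr17:39063313-39152967, minus strand) was the most abundant. Its level was 11.7, 8.96 and 8.48 CPM in control 4 h, 18.1, 12.3 and 17.1 in thrombin 4 h, and 29.0, 22.97 and 21.0 in control 24 h. It was 10.8, 11.6 and 8.63 CPM in thrombin 24 h, 15.9, 15.2 and 13.6 in control 48 h, and 27.2, 23.3 and 19.6 in thrombin 48 h. Its thrombin 48 h libraries overlapped with those of control 24 h, its highest group, although TAGLN was at 64.6 ± 12.0 CPM in the first and 25.1 ± 1.9 CPM in the second (SD, n = 3).

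SLITRK4 (chrX:143622790-143636101, minus strand) was highest in control 24 h, at 8.38 ± 0.77 CPM, and lowest in thrombin 24 h, at 2.98 ± 0.62 (SD, n = 3). At 48 h it stood at 6.97, 8.29 and 7.33 CPM with thrombin and 4.46, 4.65 and 5.66 in the control, with no overlap. LRRC4B (chr19:50516892-50568435, minus strand) ranged from 0.695 to 3.24 CPM and had only 10 to 61 counts per library. NXPH3 (chr17:49575871-49583827, plus strand) ranged from 1.52 to 5.32 CPM. Both were highest in thrombin 4 h and lowest in control 4 h, not in thrombin 24 h. Because 3 of these 4 genes are best known from neurons, 10 neuron markers were read in the same libraries. SYT1, at 22.9 CPM, was the only one with a mean of at least 1 CPM, SNAP25 was at 0.282 and STMN2 at 0.0533 CPM, and no marker was at 0 in all libraries. The markers' summed level lay between 20.3 and 31.7 CPM per library, with group means of 28.4 in thrombin 4 h, 29.9 in control 24 h, 23.5 in control 4 h and 22.3 in thrombin 24 h. SYT1 makes up most of that sum and itself was 0.41 ± 0.12 lower (log2, SE) with thrombin at 24 h (adjusted p = 0.0173, edgeR). The part of this in the levels of the 10 genes was not tested.

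MYO7A (chr11:77128246-77215241, plus strand) stood at 5.75, 4.68 and 3.76 CPM in control 4 h, 8.34, 5.65 and 6.49 in thrombin 4 h, and 14.0, 12.5 and 8.83 in control 24 h. It stood at 5.45, 4.35 and 3.05 CPM in thrombin 24 h, 3.94, 3.04 and 2.69 in control 48 h, and 7.65, 6.60 and 3.83 in thrombin 48 h. Library 12 was the highest of the 3 in all 6 groups, and the lowest group was control 48 h. SLC35F4 (chr14:57563920-57983181, minus strand) was highest in control 24 h (5.12 ± 1.85 CPM, SD, n = 3) and lowest in thrombin 24 h (1.75 ± 0.91). No pair of neighbouring groups of SLC35F4 was free of overlap. ANKRD34A (chr1:145959441-145964575, minus strand) was the most abundant per length, at 2.00 CPM per kilobase against 17.9 for TAGLN. It was lowest in control 4 h (3.83 ± 0.05 CPM, SD, n = 3) but highest in thrombin 48 h (10.3 ± 0.8), above control 48 h (8.30 ± 0.80) without overlap.

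By group means, 8 of the 10 genes therefore met the pattern they were picked for in the strict sense, with the highest mean in control 24 h or thrombin 4 h and the lowest in thrombin 24 h or control 4 h. The exceptions were ANKRD34A at the high end and MYO7A at the low end. The same pattern held for 19.4% of all 15353 genes. For GASK1B, SLC35F4, PLXDC1, LRRC4B, NXPH3 and ANKRD34A another annotated gene overlaps the locus. The sources used here do not state whether counting used strand, so reads from an antisense neighbour of GASK1B, SLC35F4, PLXDC1, NXPH3 or ANKRD34A cannot be told apart from those of the gene. TAGLN likewise overlaps PCSK7 on the opposite strand.

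The differences at 4 h and 24 h were fixed by the choice of the genes, so their sizes and counts are given as a description and nothing is read from the counts. With thrombin at 4 h all 10 genes were above control. For 7 of them edgeR's adjusted p was under 0.05, as it was for 6.29% of all genes upward and 5.52% downward. METTL7A had the largest value at 1.28 ± 0.22 (log2 fold change, SE), followed by LRRC4B at 1.27 ± 0.27, and SLC35F4 the smallest at 0.43 ± 0.27. The value of GASK1B, 0.71 ± 0.39, became 1.61 ± 0.40 without control library 12. At 24 h all 10 were below control, as picked. For 9 of them edgeR's adjusted p was under 0.05, as it was for 8.54% of all genes downward and 9.05% upward. The values ran from -1.96 ± 0.42 for GASK1B and -1.81 ± 0.25 for METTL7A to -0.56 ± 0.15 for ANKRD34A. Control 24 h was above control 4 h for all 10, with a median log2 difference of 1.20 and the largest for CDK18 at 1.58 ± 0.16. These differences share the control groups and are not independent of each other. TAGLN moved by -1.01 ± 0.12 at 4 h and 2.52 ± 0.13 at 24 h. Of 27 contractile genes, 1 rose and 10 fell at 4 h, and 21 rose and none fell at 24 h. MYOCD, the smooth muscle coactivator myocardin, was among the latter, at 2.11.

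**Figure D2:**
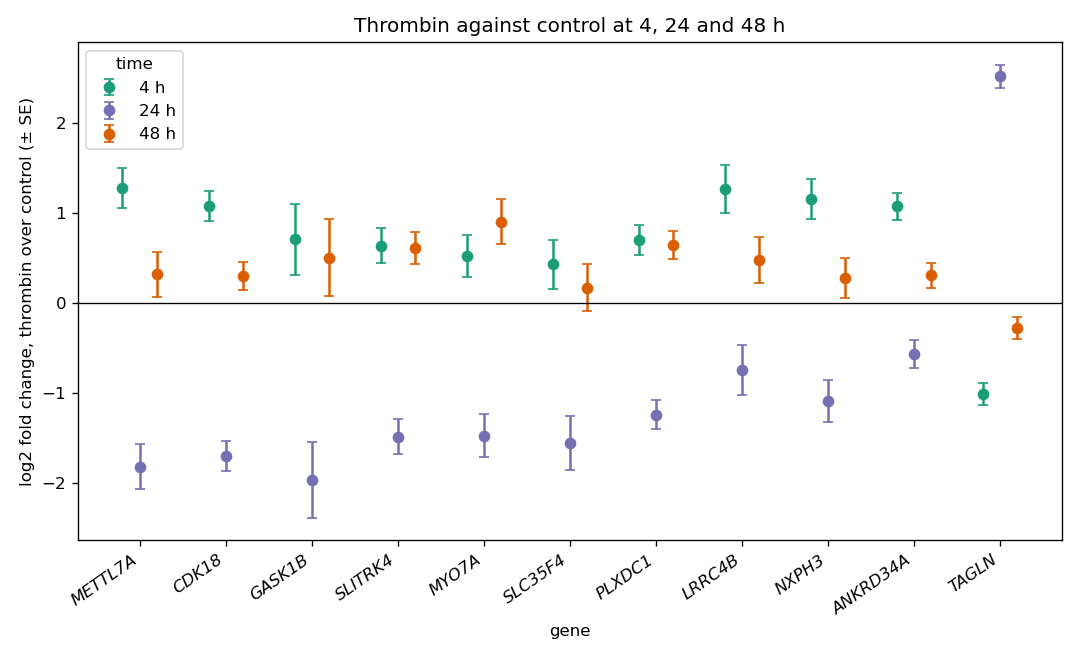
Log2 fold change of thrombin over control (y axis, ± SE, edgeR, 3 libraries against 3) for each of the 10 genes and TAGLN (x axis) at 4 h, 24 h and 48 h. The 10 genes lie above 0 at 4 h, below 0 at 24 h and above 0 again at 48 h, and TAGLN lies on the other side at each time. The values at 4 h and 24 h chose the genes.

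The comparison at 48 h was not part of the choice. There all 10 genes were on average higher with thrombin than in the control, but none passed the threshold, and neither did any of the 15353 genes (0% called by edgeR, adjusted p under 0.05). DESeq2 called 14 genes, and 1110 had an unadjusted p under 0.05. PLXDC1 averaged 14.9 ± 1.2 CPM in the control and 23.4 ± 3.8 CPM under thrombin (SD, n = 3). Its log2 fold change was 0.65 with an SE of 0.15 and an adjusted p of 0.249 in edgeR. By p it ranked 16 among all genes. MYO7A averaged 3.22 ± 0.64 CPM in the control and 6.03 ± 1.97 CPM under thrombin. Its thrombin library 14 lay below control library 12, but within each library number it was higher with thrombin. Its log2 fold change was 0.91 ± 0.25 (adjusted p = 0.395). With library number as a block, MYO7A was at 0.90 ± 0.17 (edgeR adjusted p = 0.0631) and PLXDC1 at 0.64 ± 0.13 (edgeR adjusted p = 0.0696). Neither passed. Without the block, SLITRK4 was at 0.62 ± 0.18 (adjusted p = 0.428) and ANKRD34A at 0.31 ± 0.14 (adjusted p = 0.647).

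Those 4 genes, of 10, were higher at an unadjusted p under 0.05, against 4.25% of all genes. CDK18, SLITRK4, PLXDC1 and ANKRD34A had every thrombin library above every control library, which 7.28% of all genes had. A log2 fold change above 0 was found for 10 of 10, against 52.4% of all genes, with a median of 0.40 against 0.01 over all genes. Since the 10 genes were high and low together in the other groups, they are not 10 independent readings. The remaining genes had intervals that include 0, such as METTL7A at 0.32 (95% interval -0.18 to 0.83), CDK18 at 0.30 (-0.02 to 0.62), NXPH3 at 0.28 (-0.18 to 0.74) and SLC35F4 at 0.18 (-0.37 to 0.72). LRRC4B was at 0.48 ± 0.26. GASK1B was at 0.51 ± 0.43 and at -0.02 ± 0.48 when thrombin library 13, at 2.51 CPM against 1.11 and 1.16, was left out. When genes of low counts were kept in the fit, PLXDC1 and MYO7A passed the threshold (edgeR adjusted p = 0.00303 and 0.00391), among 50 genes in all. TAGLN was at -0.27 ± 0.12 (adjusted p = 0.640), and none of the 27 contractile genes passed, with a median of 0.04.

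Over the 18 libraries, each of the 10 genes was inversely related to TAGLN in log2 CPM. Pearson's r was -0.88 for METTL7A, -0.83 for CDK18, -0.75 for GASK1B, -0.71 for SLITRK4 and NXPH3, -0.69 for MYO7A, -0.66 for SLC35F4, -0.61 for PLXDC1, -0.52 for LRRC4B and -0.40 for ANKRD34A. Spearman's rho lay between -0.84 for CDK18 and -0.39 for ANKRD34A. These are descriptions with no p: the genes were chosen for this pattern, and the 18 points fall into 6 groups of libraries that share treatment and time. An r of -0.50 or lower was found for 9 of the 10 and for 14.0% of all genes tested. Without the 2 libraries of lowest TAGLN, control 24 h libraries 13 and 14, r was -0.89 for METTL7A, -0.79 for CDK18 and -0.37 for ANKRD34A. Over the 6 group means it ranged from -0.98 for GASK1B to -0.41 for ANKRD34A.

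The groups departed from a single line at 48 h and at 4 h. The mean standardized level of the 10 genes was 0.69, 0.66 and 0.23 SD units in the thrombin 48 h libraries. It was -0.14, -0.18 and -0.19 in the control 48 h libraries. TAGLN overlapped between these groups, but in each library number it was lower with thrombin (77.1, 63.4 and 53.2 against 94.1, 76.4 and 63.8 CPM). In control 4 h the mean level of the 10 genes was -0.34, -0.99 and -1.35, lower than in control 48 h at similar TAGLN. All 45 pairs among the 10 genes were positively related over the 18 libraries, with a median r of 0.66, as their choice by one pattern implies.

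**Figure D3:**
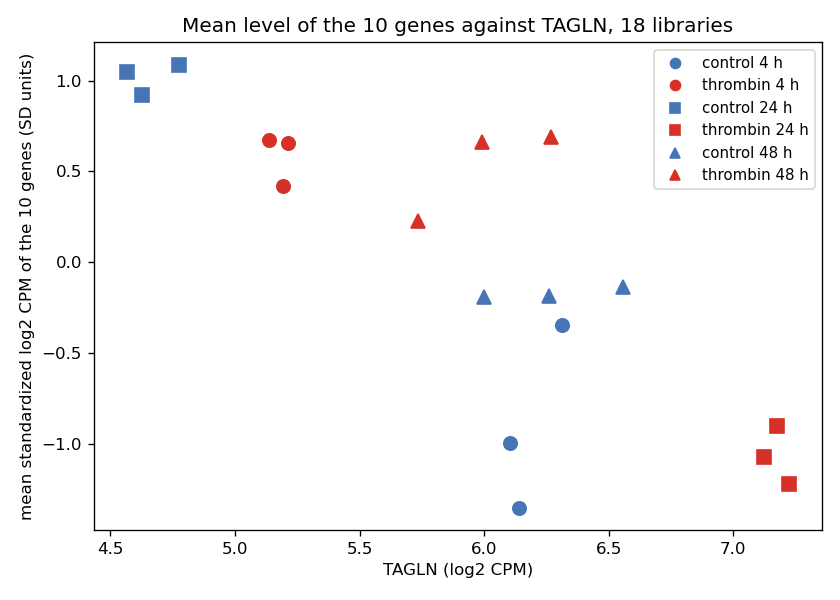
Mean standardized log2 CPM of the 10 genes (y axis, SD units) against TAGLN (x axis, log2 CPM), 1 point for each of 18 libraries, colour for treatment and shape for time. Control 24 h lies at the upper left and thrombin 24 h at the lower right, and the thrombin 48 h libraries (0.23 to 0.69) lie above the control 48 h libraries (-0.19 to -0.14).

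The groups were then taken out, leaving each library's deviation from its group mean, which the choice of genes did not use. Taken over all 18 libraries, the inverse relation was not seen at this level. Among the 10 genes, the within-group r with TAGLN was positive for 6 and negative for 4. At an adjusted p under 0.05 no gene of 15352 was called (0%, exact permutation within groups, 46656 arrangements). The 26 contractile genes other than TAGLN, with a median r of 0.65 over the 18 libraries, were not called either (median within-group r 0.24). The test thus cannot tell a missing relation from one too weak to be called. METTL7A and CDK18, of lowest r over the 18 libraries among the 10, were near 0 at -0.15 (p = 0.646) and -0.04 (p = 0.829, exact permutation). Of the 10, 3 had an unadjusted p under 0.05, against 5.71% of all genes, and in all 3 the sign was positive. MYO7A had r = 0.64 (exact permutation p = 0.0200, adjusted 0.847; Spearman's rho 0.55, p = 0.0475). PLXDC1 had r = 0.54 (p = 0.0122, adjusted 0.841; rho 0.47, p = 0.0713, exact permutation). LRRC4B had r = 0.51 (p = 0.0368, adjusted 0.854; rho 0.51, p = 0.0680, exact permutation). The other genes were NXPH3 at 0.43, GASK1B at 0.20, SLC35F4 at 0.04, and SLITRK4 and ANKRD34A at -0.08 each. Among the 45 pairs of the 10 genes the median within-group r was 0.11, with 32 positive.

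Without the 2 libraries farthest from the median of the TAGLN deviations, control 48 h and thrombin 48 h library 12, r was 0.49 for MYO7A, 0.47 for PLXDC1 and 0.60 for LRRC4B. Within 48 h alone it was 0.91 for MYO7A and 0.92 for PLXDC1, each with p = 0.0556 by exact permutation of 36 arrangements. At that time TAGLN and both genes were highest in library 12 and lowest in library 14 under both treatments. Other genes were inversely related to TAGLN within 48 h. The r was -0.67 for CDK18, -0.67 for SLITRK4 and -0.54 for METTL7A (exact permutation p = 0.139, 0.250 and 0.306). For NXPH3 it was 0.73, for LRRC4B 0.65, for SLC35F4 0.16, for GASK1B 0.08 and for ANKRD34A 0.04. Without the libraries numbered 12, the within-group r was 0.32 for MYO7A and 0.09 for PLXDC1. With the mean of each library number also taken out it was 0.03 for MYO7A and -0.01 for PLXDC1.

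**Figure D4:**
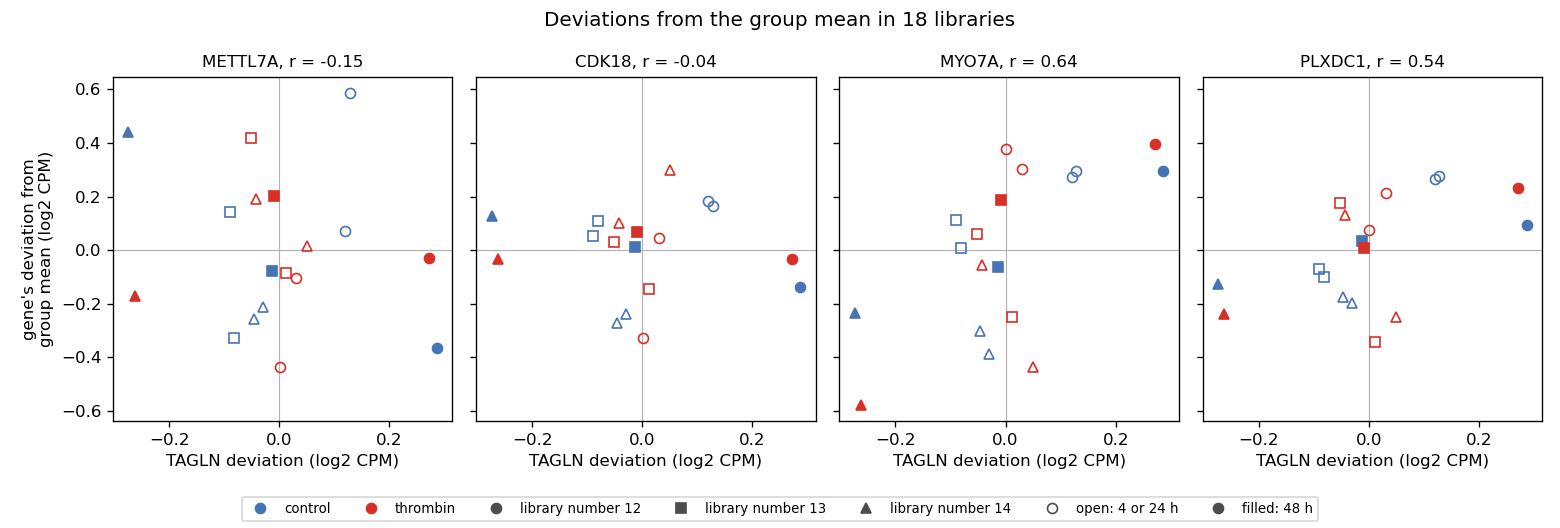
Deviation of METTL7A, CDK18, MYO7A and PLXDC1 from the group mean (y axis, log2 CPM) against that of TAGLN (x axis, log2 CPM) in 18 libraries, with shape for library number and filled points for 48 h. METTL7A (r = -0.15) and CDK18 (r = -0.04) are spread about 0, while in MYO7A (0.64) and PLXDC1 (0.54) the circles of library 12 lie at or above 0.

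Library number itself was tested across all groups. In edgeR, 81 of 15353 genes (0.528%) differed between the numbers at an adjusted p under 0.05, and MYO7A was the only one of the 10. MYO7A was 0.48 ± 0.10 higher (log2, SE) in library 12 than in 13 and 14 (adjusted p = 0.0154), highest in library 12 in 6 of 6 groups and lowest in library 14 in 5 of 6. PLXDC1 was 0.29 ± 0.08 higher in library 12 (adjusted p = 0.238), highest there in 5 of 6 groups. TAGLN was 0.21 ± 0.06 higher (adjusted p = 0.327), highest there in 5 of 6. METTL7A, CDK18 and SLITRK4 differed by -0.02, -0.0044 and -0.01. Since the numbers cross all 6 groups, the comparison at 48 h holds each number once in each arm.

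Genes with the profile most like the mean of the 10 were sought among all genes of at least 1 CPM. The highest r over the 18 libraries were those of PPL (0.97), which encodes periplakin of the cornified envelope and desmosomes, SATB1 (0.95), a chromatin organizer, ABHD15 (0.95), ENO2 (0.95), the neuronal enolase, and IFT140 (0.95), of intraflagellar transport. PPL averaged 17.5 CPM in control 4 h, 46.3 in thrombin 4 h, 79.9 in control 24 h, 13.7 in thrombin 24 h, 37.9 in control 48 h and 61.0 in thrombin 48 h, a wider span than any of the 10 showed. Among the lowest r were those of MYO7B (-0.97), MYPN (-0.96), the sarcomere protein myopalladin, BMPER (-0.96) and DPF3 (-0.95). Over the 6 group means only 1 of the 10 genes at the 2 ends remained, so these names depend on that choice. The nearest single genes were DDAH2 to METTL7A (0.94), EPHB6 to CDK18 (0.95), PIGU to GASK1B (0.93) and ITGB4 to MYO7A (0.93). They were RGS17 to SLC35F4 (0.89), PPL to PLXDC1 (0.95), CNKSR3 to LRRC4B (0.90), PBX2 to NXPH3 (0.92) and MAFG to ANKRD34A (0.91).

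Families and binding partners of the 10 genes were listed, 60 genes in all, of which 42 were tested. With thrombin at 4 h 2 rose and 5 fell, against 6.29% and 5.52% of all genes. At 24 h 10 rose and 5 fell, against 9.05% and 8.54%, and none passed at 48 h. MYO1C is named for its level, MYO7B because its profile over the 18 libraries was the least like that of the 10, and the others were picked after their values were seen. MYO7B, the close relative of MYO7A found in brush borders, was high where MYO7A was low, which is what it was named for, so its values are a description with no test. It stood at 12.2, 13.5 and 16.8 CPM in control 4 h, 6.71, 6.96 and 6.49 in thrombin 4 h, and 5.21, 4.42 and 6.49 in control 24 h. It stood at 12.6, 15.8 and 17.3 CPM in thrombin 24 h, 8.93, 8.81 and 11.3 in control 48 h, and 7.53, 6.80 and 7.46 in thrombin 48 h. The groups were apart at each time. The log2 fold change was -1.07 ± 0.15 at 4 h, 1.50 ± 0.16 at 24 h and -0.42 ± 0.16 at 48 h (SE, n = 3). Of 14 tested myosin and Usher-complex genes listed with MYO7A, 6 rose and 1 fell at 24 h, against 9.05% and 8.54% of all genes. MYO1C, a class I myosin and the most abundant of all listed family genes at 735 CPM, rose by 0.46 ± 0.08 (adjusted p = 0.000252).

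SLITRK5, NXPH4, NRXN3 and NTNG2 were picked after their values were seen, so their values at 4 h and 24 h are a description with no test. SLITRK5, a relative of SLITRK4, changed in the direction of SLITRK4, by 0.67 ± 0.11 at 4 h and -0.56 ± 0.11 at 24 h (log2 fold change, SE). Of the 8 genes listed for SLITRK4, 3 passed the filter on low counts; SLITRK1, SLITRK2, SLITRK3 and SLITRK6 did not. NXPH4, another neurexophilin, rose by 0.46 ± 0.12 at 4 h and fell by 0.41 ± 0.13 at 24 h. Neurexophilins bind alpha-neurexins, and the neurexin gene NRXN3 went the other way, by -0.94 ± 0.12 at 4 h and 1.79 ± 0.12 at 24 h. NRXN3 was at 54.1, 47.7 and 50.1 CPM in thrombin 24 h and 13.5, 14.7 and 15.7 in control 24 h. NTNG2, a netrin-G listed with LRRC4B, was lower with thrombin at 24 h, at -0.86 ± 0.14. The other tested genes listed with LRRC4B did not fall at 24 h, PTPRF at 0.28 ± 0.10 and PTPRS at 0.12 ± 0.09. At 48 h the values of SLITRK5, NXPH4, NRXN3 and NTNG2 lay between -0.10 and 0.16 and none passed.

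**Figure D5:**
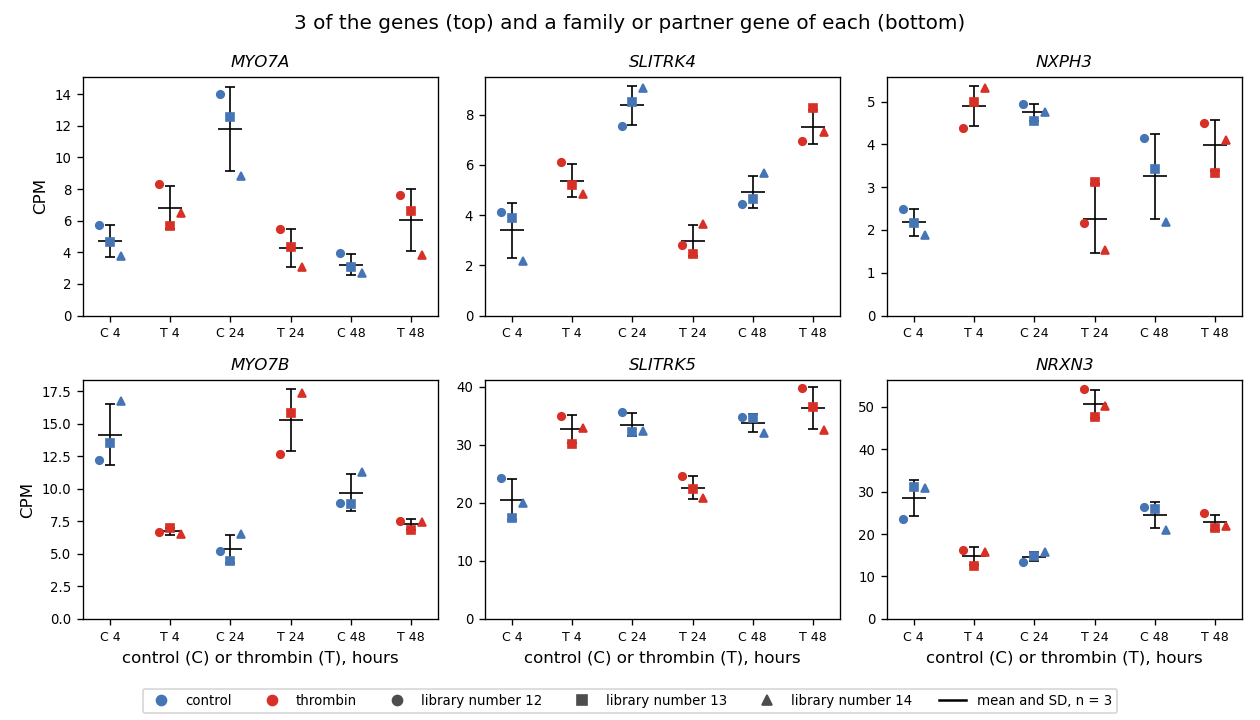
Levels in CPM (y axes, from 0) of MYO7A, SLITRK4 and NXPH3 (top) and of MYO7B, SLITRK5 and NRXN3 (bottom) in the 6 groups (x axis, control or thrombin and hours), 1 point per library with mean and SD of n = 3. MYO7B and NRXN3 are high in thrombin 24 h (15.3 and 50.6 CPM) and low in control 24 h (5.37 and 14.6 CPM), while SLITRK5 is low in thrombin 24 h (22.6 CPM) and high in control 24 h (33.4 CPM).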

How the data were processed

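Poly(A) RNA of 18 libraries was sequenced. The deposited table holds raw read counts per gene symbol, per the file headers; the submitters' processing notes name cutadapt 4.9, Bowtie2 2.5.4, SAMtools 1.21 and DESeq2 on GRCh38 (hg38), and the counting step and its strand setting are not given in the sources used here. Counts summed over genes were 14431044 to 23270601 per library. From these counts edgeR 4.0.16 (R 4.3.3) was run with TMM scaling, its expression filter (minimum count 10, minimum total 15), group means over all 18 libraries and the robust quasi-likelihood test, with Benjamini-Hochberg adjustment over 15353 genes and a threshold of 0.05. Levels are CPM; correlations used log2 CPM with a prior count of 2 and, within groups, exact two-sided permutation (NumPy). The scripts were tested on simulated data. The 10 genes and all gene lists were chosen with earlier results of these data known. Named beside them were the 5 genes most and least like their mean profile, the gene most like each, and family genes by level. Some genes that this rule names are not reported here. Alternatives were RLE and upper quartile scaling, no filter, DESeq2 1.42.0, subsets of libraries, a library-number block, Spearman's rho and another prior count.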

Additional observations from a re-analysis of the deposited data

Results flagged for a closer look

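For 8 of the 11 genes followed in every group (7 of the 10 genes, and TAGLN), every thrombin library lay on one side of every control library at 4 h and on the other side at 24 h. The difference between times was not tested, since these contrasts chose the genes, and nothing is read from the count. Of all 15353 genes, 6.44% had every thrombin library above at 4 h and below at 24 h, and 5.40% the reverse. The log2 fold change at 24 h minus that at 4 h was -3.10 for METTL7A, -2.78 for CDK18, -2.24 for NXPH3, -2.12 for SLITRK4, -2.01 for LRRC4B, -1.94 for PLXDC1 and -1.64 for ANKRD34A, against 3.53 for TAGLN. GASK1B, MYO7A and SLC35F4 overlapped at 4 h and are not among them. The same reversal without overlap was found in some of the 42 tested family and partner genes, named with their values known. It was 2.57 for MYO7B and 2.73 for NRXN3, in the direction of TAGLN, and -1.24 for SLITRK5, -1.20 for NTNG2 and -0.87 for NXPH4. No share over all 42 is given to set against the shares of all genes, so nothing is read about the families. The reversal was not tested for these genes either.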

How the results depend on the processing

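Of 297 recomputed differences at 4 h, 24 h and between controls, all kept their sign, and 2, both of GASK1B without control 4 h library 12, moved by more than the replicate SD. Of 160 recomputed values of the 10 genes at 48 h, 159 were above 0; the exception was GASK1B, which ranged from -0.0248 (without thrombin 48 h library 13) to 0.71 when 1 library was left out. The count of genes called at 48 h, 0, became 1 with upper quartile scaling, 50 without the filter, 2 with only the 48 h libraries and 14 with DESeq2. Leaving out 1 library gave 0 to 1, and leaving out all libraries numbered 12, 13 or 14, an alternative added after seeing the data, gave 5, 0 and 4. Over all genes, same-numbered libraries did not all deviate together (median correlation 0.01, with 11 of 45 pairs over 0.1, and 9 of 18 libraries closest to their own number), so the number was not used as pairing. With a replicate block the count at 48 h was 1, and with the block and only the 48 h libraries, added after seeing the data, it was 10, PLXDC1 among them (0.64 ± 0.12, edgeR adjusted p = 0.0141). The 81 genes called for library number, MYO7A among them, became 252 without the filter, 135 with DESeq2 and 5 with only the 48 h libraries, where the library 12 effect was 0.53 for MYO7A, no longer called, -0.30 for GASK1B and 0.0168 for ANKRD34A. The cause was not tested.

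Correlations near 0 within groups changed sign between alternatives. Without the 2 farthest libraries r was 0.16 for METTL7A, 0.24 for CDK18, 0.17 for SLITRK4 and -0.0635 for SLC35F4. Without the 48 h libraries it was 0.35 for METTL7A, 0.37 for CDK18, 0.32 for SLITRK4 and -0.0742 for NXPH3. It was -0.0402 for SLC35F4 without the 4 h libraries, and Spearman's rho was 0.0031 for CDK18. No motif result changed with the 200 bases nearest the start, and counts of 8 to 61 per library limit GASK1B and LRRC4B most.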

Other observations

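MYO7A and MYO7B, set side by side after their opposite patterns were seen, differed most in the groups at 24 h. The ratio of MYO7A to MYO7B CPM, not adjusted for length and so to be read only between groups, was 0.347 ± 0.123 in control 4 h, 1.02 ± 0.22 in thrombin 4 h, 2.30 ± 0.81 in control 24 h and 0.294 ± 0.129 in thrombin 24 h (SD, n = 3). At 48 h it was 0.441, 0.345 and 0.238 in the control and 1.02, 0.970 and 0.514 with thrombin, again with no overlap. TAGLN overlapped there but was lower with thrombin in each library number. The deviations of MYO7A and MYO7B from their group means were also inversely related over the 18 libraries. Their r was -0.66, against -0.74 with the group means left in, a description with no test. For MYO7A and PLXDC1 the within-group r was 0.84, the highest of the 45 pairs of the 10 genes. Library number moves with both: with its means also taken out, an alternative added after seeing the data, r was -0.28 for MYO7A with MYO7B and 0.68 for MYO7A with PLXDC1.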
